A study of Mus musculus with 8 samples.

Results

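The 39 genes described here are the genes of the amino acid response driven by the transcription factor ATF4, with serine and folate enzymes and amino acid carriers, and a set of chaperones and stress genes of the endoplasmic reticulum (ER). They were taken by gene symbol, a rule that uses no level or fold, though the genes were chosen with earlier results of these data known. All 39 were found among the 23361 genes of the authors' deposited table. The ATF4 arm has 32 genes and the ER chaperone arm 7, and the arms are kept apart throughout. Poly(A) RNA came from established lines of mouse acute myeloid leukaemia of strain 129S6, transformed with the fusion oncogene MLL-AF9 and carrying CreERT2, a recombinase that 4-hydroxytamoxifen (4OHT) activates. The floxed line was Cdc73fl/fl and the control line Cdc73 +/+, and both received 7.5 nM 4OHT, for 24 or 48 h, in medium with serum and interleukin 3. Each of the 4 groups had 2 biological duplicates, 8 libraries in all, which the deposited table combines into 1 FPKM value (fragments scaled to transcript length and library size). No library without 4OHT was analysed here, and the lines are different lines, so a difference that existed before 4OHT cannot be told apart from one that followed excision of Cdc73, a subunit of the PAF1 elongation complex.

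ATF4 is made mostly when the initiation factor eIF2 is phosphorylated, because upstream reading frames in its mRNA hold back its translation otherwise, so the mRNA level of Atf4 is only part of its control. Kinases that sense amino acid shortage, ER stress, haem shortage or double-stranded RNA share this switch, and ATF4 then raises genes for amino acid synthesis, uptake and tRNA charging. The ER has further sensors, IRE1 and ATF6, which raise chaperones through spliced XBP1 and cleaved ATF6. Serine made from a glycolytic intermediate feeds the mitochondrial folate cycle, which supplies formate for nucleotide synthesis in dividing cells.

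Expressed here means that the highest of the 4 group values reached 1 FPKM, and called means that the q-value in the authors' deposited table was under 0.05. That q is the authors' own, from 2 libraries a group, and no error of a group value could be computed. Its smallest value was 0.000449 at 24 h, shared by 1328 genes, and 0.000165 at 48 h, shared by 3684 genes. Where 2 values stand together without labels, the wild type level comes first and the floxed level second. Of the 39 genes, 37 were expressed, among 11158 expressed genes in the whole table. Vldlr, a lipoprotein receptor, stayed between 0.00460 and 0.0946 FPKM. Cbs, the first enzyme of cysteine synthesis from homocysteine, stayed between 0.0825 and 0.388 FPKM. Cdc73 itself stood at 22.7% of the wild type level in floxed cells at 24 h and at 20.3% at 48 h. Markers of B, T, erythroid, stromal and plasma cells were low, with 20 of 24 under 1 FPKM in every group and Cd3e, Pax5 and Hbb-b1 listed at 0 throughout. The exceptions were Cd79b, Pecam1, Sdc1 and Lck, and the first 3 differed with genotype. Cd79b, of B cells, was called higher in the floxed line at both times, at 0.890 and 8.21 FPKM and then at 1.06 and 5.90. Pecam1, from the stromal list, was called lower at both times, at 6.91 and 3.23 and then at 6.41 and 2.35. The other stromal markers, Cdh5, Col1a1, Col1a2 and Pdgfrb, stayed at or below 0.0520 FPKM in every group. Sdc1, of plasma cells, was also called lower at both times, at 2.08 and 0.170 and then at 1.37 and 0.571. Lck, of T cells, lay between 1.18 and 2.02 with no call. The part of these markers in the results was not tested. The 6 myeloid markers found, Ptprc, Cebpa, Mpo, Itgam, Csf2rb and Cd33, were all at 35.7 FPKM or more in every group.

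In both arms more genes were called higher than lower at 24 h, and more lower than higher at 48 h. At 24 h, 9 of 30 expressed genes of the ATF4 arm were called higher and 3 lower, and 3 of 7 of the ER chaperone arm were called higher and 0 lower. Among 10987 expressed genes with a deposited q under 1 at that time, the share called was 27.6%, with 13.4% higher and 14.2% lower. At 48 h, 6 genes of the ATF4 arm were called higher and 17 lower, and 1 gene of the ER chaperone arm was called higher and 3 lower. Among 11039 such genes at 48 h the share called was 56.8%, with 25.7% higher and 31.0% lower. The median log2 difference (floxed minus wild type, on the log2(FPKM + 1) scale, which understates low genes) of the ATF4 arm was 0.14 at 24 h and -0.49 at 48 h. That of the ER chaperone arm was 0.33 and -0.38, and that of all expressed genes was -0.01 and -0.06. Within the ATF4 arm the lists differed at 48 h. Their medians were 0.36 for regulators, -0.88 for serine and folate enzymes, -0.56 for other amino acid enzymes and -0.32 for carriers. The difference was lower at 48 h than at 24 h for 28 of 37 genes (75.7%), against 6188 of 11158 genes (55.5%) overall. That change with time was not tested, since each group has 1 value. FPKM is relative to all other RNA of the sample, and in such bulk samples less RNA per cell and fewer cells of a kind cannot be told apart.

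**Figure D1:**
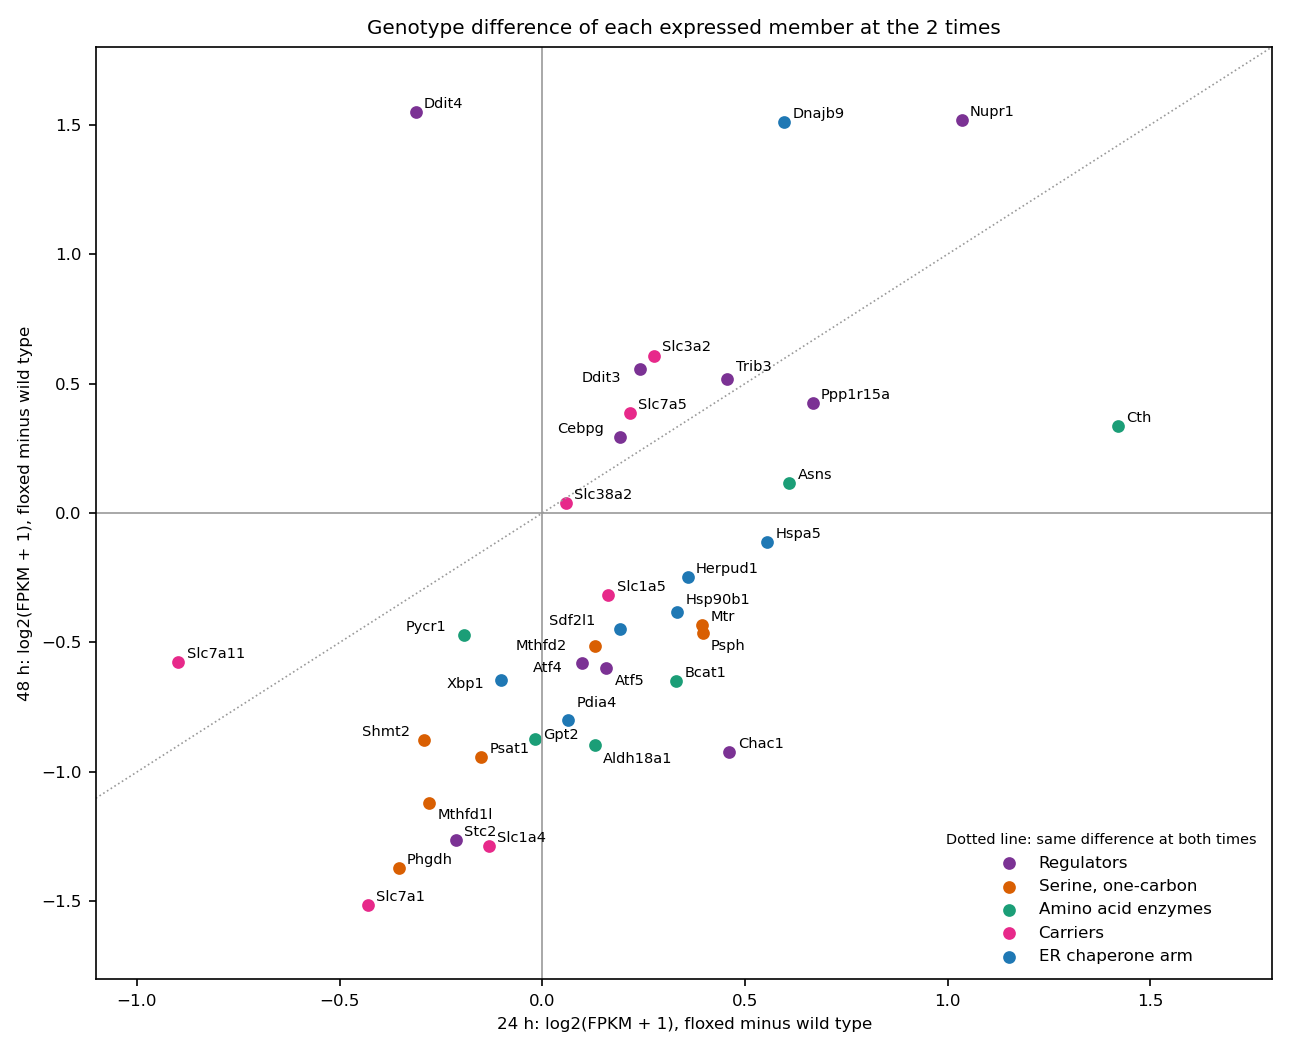
Log2(FPKM + 1) in floxed minus wild type cells at 24 h (x axis) against the same at 48 h (y axis), 1 point for each of the 37 expressed genes, coloured by role; the dotted line marks equal differences. The serine and folate genes lie below the line without exception, and Ddit4, Nupr1 and Dnajb9 lie highest at 48 h, at 1.55, 1.52 and 1.51.

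Promoter sequences are shown for expressed genes whose RefSeq window carries the binding element of their arm upstream of the RefSeq start. Gene spans given in the text are those of GENCODE M21, whose starts can differ from those of RefSeq. The printed elements of Asns, Nupr1 and Hspa5 lie inside the GENCODE spans given below. RefSeq windows of build GRCm38.p6, 250 bases before to 50 after the transcription start, were available for 36 of the 39 genes. TGATGNAA, the composite ATF4 and C/EBP element, was searched on both strands, and the capitals mark it as read on the strand of the gene.
Asns, chr6:7693214-7693243, minus strand: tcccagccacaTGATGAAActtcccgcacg
Chac1, chr2:119351038-119351067, plus strand: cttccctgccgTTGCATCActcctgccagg
Nupr1, chr7:126625562-126625591, minus strand: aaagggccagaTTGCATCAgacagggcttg
Pycr1, chr11:120643833-120643862, minus strand: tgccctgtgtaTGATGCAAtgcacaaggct
Slc7a11, first match, chr3:50443661-50443690, minus strand: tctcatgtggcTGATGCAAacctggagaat
Slc7a11, second match, chr3:50443642-50443671, minus strand: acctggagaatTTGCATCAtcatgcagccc
The element was present in 8 of 29 windowed genes of the ATF4 arm (27.6%), in 1 of 7 of the ER chaperone arm (Herpud1), and in 237 of 8239 expressed genes with a window (2.88%). Since the ATF4 arm was assembled in part from known ATF4 targets, this share describes the list and is no separate evidence. The 8 genes were Asns, Chac1, Nupr1, Pycr1, Slc7a11, Slc1a4, Trib3 and Vldlr. Vldlr is not printed because it was not expressed, and Slc1a4 and Trib3 because their match lies across or after the start. Calls went both ways. Of the 7 expressed ones, 4 were called higher and 1 lower at 24 h. At 48 h, 2 were called higher and 4 lower. The shares among all expressed genes tested were 13.4% higher and 14.2% lower at 24 h, and 25.7% and 31.0% at 48 h.

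The ER stress element is CCAAT, 9 bases of any kind, then CCACG, and its second form is ATTGG, 1 base of any kind, then CCACG, each searched on both strands. The first form was found in Hspa5 and, as 2 matches, in Hsp90b1, which is 2 of 7 genes of the ER chaperone arm against 14 of 8239 expressed genes (0.170%). The second form was found in Herpud1, 1 of 7 genes of that arm, against 8 of 8239 expressed genes (0.0971%). The capitals mark the element.
Hspa5, chr2:34772020-34772048, plus strand: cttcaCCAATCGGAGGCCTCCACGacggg
Hsp90b1, distal match, chr10:86705633-86705661, minus strand: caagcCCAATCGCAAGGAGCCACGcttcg
Hsp90b1, proximal match, chr10:86705528-86705556, minus strand: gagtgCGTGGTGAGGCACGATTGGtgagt
Herpud1, chr8:94386368-94386396, plus strand: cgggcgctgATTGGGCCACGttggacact
No gene of the ATF4 arm had either form in its window. Of these 3 ER genes, 2 were called higher at 24 h and 0 were called at 48 h. Among all expressed genes tested, 13.4% were called higher at 24 h and 56.8% were called in either direction at 48 h. Since this arm was assembled from known chaperones and stress genes of the ER, its shares too describe the list and are no separate evidence. A match is a description of letters in the window and not a measured binding site.

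Among the regulators, the feedback and stress genes Nupr1, Trib3 and Ppp1r15a were called higher in floxed cells at both times, while Atf4 itself was called lower at 48 h. Atf4 lies on chromosome 15 from 80255184 to 80257541, plus strand of mm10. Wild type cells held 283 FPKM and floxed cells 304 at 24 h, then 301 and 201 at 48 h, where it was 1.50-fold lower. The authors' deposited table gives Atf4 q = 0.661 at 24 h and q = 0.00162 at 48 h. It was among the most abundant mRNAs of these cells, above 96.8% of expressed genes. Atf5, a related factor induced by the same pathway, stood at 60.7 and 67.8 FPKM at 24 h and at 62.5 and 40.9 at 48 h, with no call. Atf5 shares its locus entry with 4 other genes, Nup62 among them, so its reads may have been divided unevenly. Cebpg, a C/EBP factor that pairs with ATF4, stood at 13.2 and 15.3 at 24 h and at 14.3 and 17.7 at 48 h, with no call.

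Nupr1, a small stress-induced chromatin protein, gave the largest difference among the regulators at 24 h. It lies on chromosome 7 from 126623249 to 126630861, minus strand. The control line held 13.3 FPKM and the floxed line 28.3 at 24 h, then 14.0 and 42.0 at 48 h, so it was 2.13-fold and 2.99-fold higher. Trib3, a pseudokinase that restrains ATF4, stood at 11.5 and 16.1 at 24 h and at 11.8 and 17.3 at 48 h (1.40-fold and 1.47-fold higher). Ppp1r15a, known as GADD34, directs a phosphatase to eIF2 and so ends the response. It was 1.77-fold higher at 24 h, with 3.14 and 5.58 FPKM, and 1.44-fold higher at 48 h, with 3.30 and 4.77. The authors' deposited table gives q = 0.000449 at 24 h for Nupr1 and Ppp1r15a and q = 0.00473 for Trib3, and at 48 h q = 0.000165, 0.0157 and 0.00534 for Nupr1, Ppp1r15a and Trib3. In all, 4 of the 37 expressed genes, these 3 and Dnajb9, were called higher at both times, near the 10.2% of the 10960 expressed genes with a q under 1 at both.

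Ddit3, which encodes CHOP, the factor linked to death after prolonged ER stress, had higher values in floxed cells but no call. It stood at 9.45 and 11.4 FPKM at 24 h and at 10.2 and 15.4 at 48 h, with q = 0.819 and then q = 0.434 in the authors' deposited table. Its locus entry also holds Mars, the methionyl-tRNA synthetase gene, which was called lower at both times, at 69.0 and 48.7 FPKM and then at 67.4 and 27.4. Reads there may have been divided unevenly between the 2 genes, so the level of Ddit3 is uncertain.

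The remaining regulators and secreted targets split at 48 h. Ddit4, also named REDD1, restrains the growth kinase complex mTORC1 and lies on chromosome 10 from 59949669 to 59951834, minus strand. The level was 22.5 FPKM with Cdc73 intact and 17.9 in the floxed line at 24 h, with no call made, then 19.2 and 58.0 at 48 h. That is 3.02-fold higher at 48 h, with q = 0.000165 in the authors' deposited table, and the highest log2 difference of the 37 genes. Chac1, which degrades glutathione and is a common readout of ATF4, was called higher at 24 h (6.19 and 8.90 FPKM, 1.44-fold) and lower at 48 h (8.79 and 4.16, 2.11-fold). In wild type cells Chac1 was 1.42 times as high at 48 h as at 24 h, so its control value was not level over time. Stc2, a secreted glycoprotein of the stress response, stood at 48.7 and 41.9 at 24 h and at 47.5 and 19.2 at 48 h, where it was called 2.47-fold lower.

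**Figure D2:**
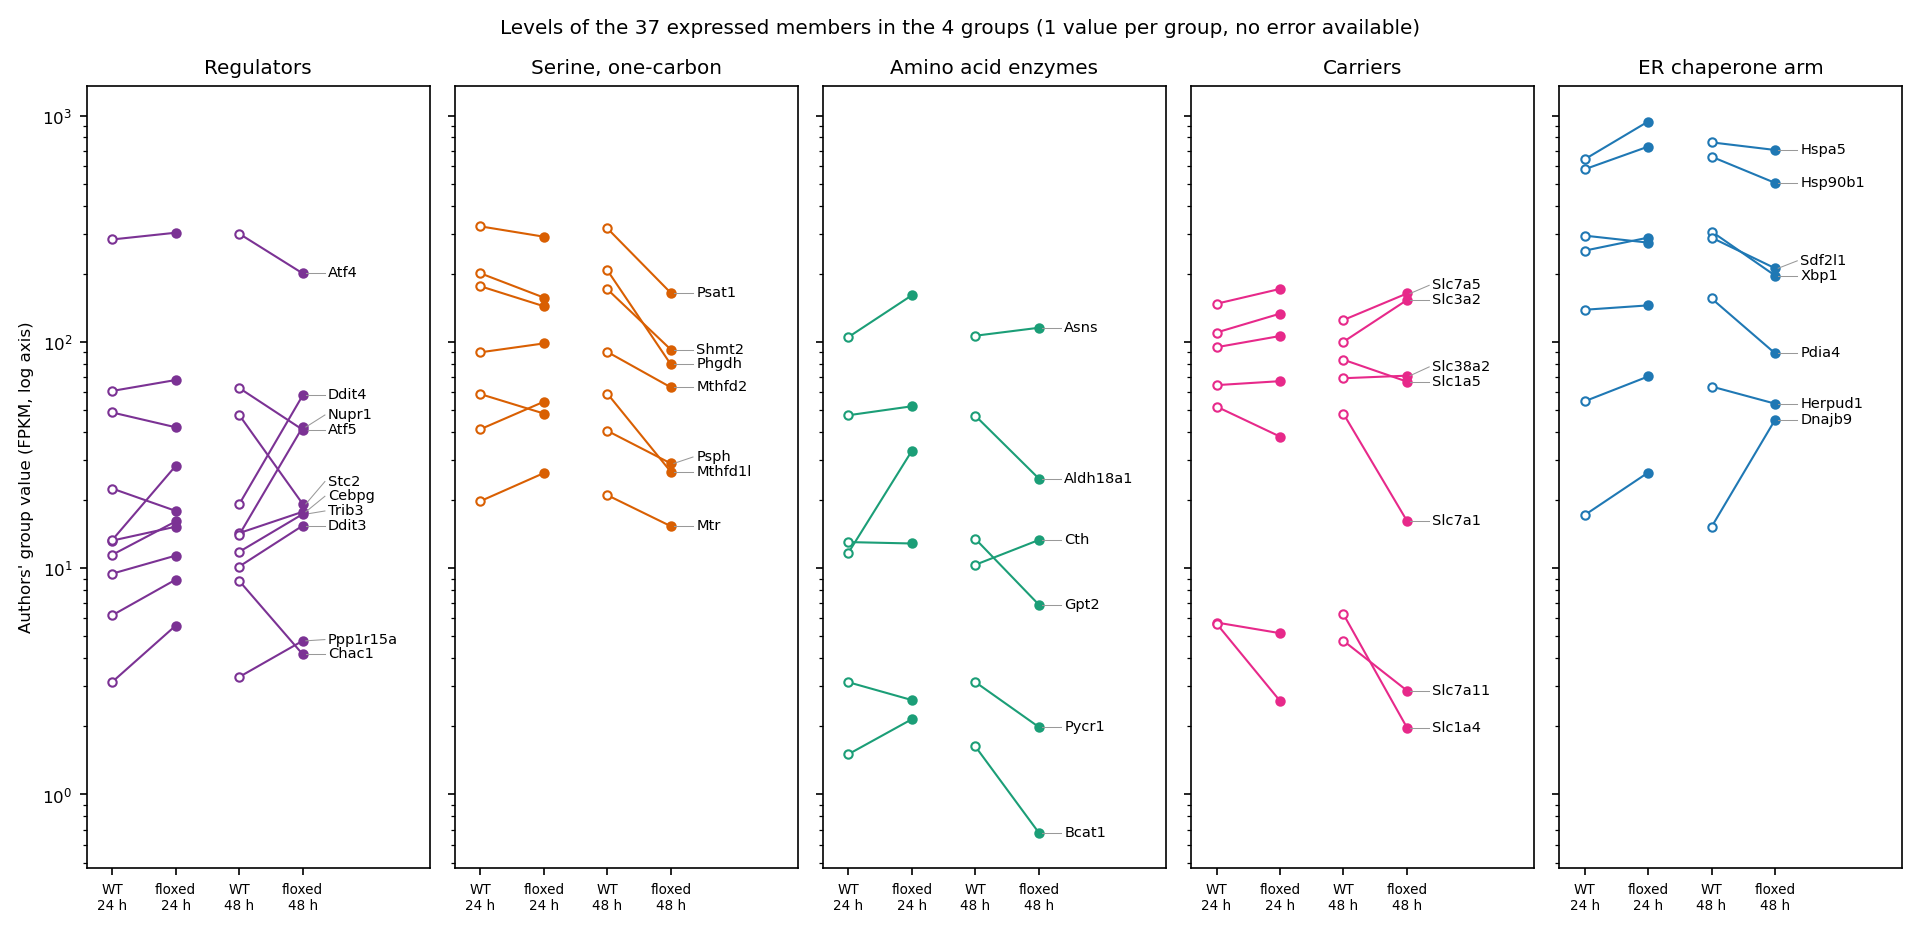
FPKM on a log axis in the 4 groups for the 37 expressed genes, 1 panel per role; open points are wild type cells, filled points floxed cells, segments join the 2 genotypes of 1 time, and each point is the authors' single group value without error. In the serine panel all 7 segments slope down at 48 h, while the regulator and carrier panels hold segments of both slopes.

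Serine and folate enzymes gave the most uniform picture, with 7 of 7 called lower in floxed cells at 48 h. At 24 h, 2 were called higher, 1 lower and 4 were not called. Among all expressed genes tested, 31.0% were called lower at 48 h, and 13.4% higher and 14.2% lower at 24 h. The 7 genes summed to 910.4 FPKM in the control line against 819 in the floxed line at 24 h. At 48 h the sums were 906 and 471, so the floxed sum was 0.900 and then 0.519 times the control sum. Most of each sum was Psat1, Phgdh and Shmt2. The wild type sums thus lay close together, and the floxed sum at 48 h stood apart below the other 3. The list's median log2 difference was -0.15 at 24 h and -0.88 at 48 h.

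Phgdh, the first enzyme of serine synthesis, was called lower at both times. It lies on chromosome 3 from 98313170 to 98339990, minus strand. Wild type cells held 201 FPKM and floxed cells 157 at 24 h, then 207 and 79.6 at 48 h, so it was 1.28-fold and 2.61-fold lower. The authors' deposited table gives Phgdh q = 0.0427 and q = 0.000165. Psat1, the transaminase of the second step, lies on chromosome 19 from 15904678 to 15947337, minus strand, and was above 96.8% of expressed genes. It stood at 324 and 292 at 24 h, without a call, and at 317 and 165 at 48 h, 1.93-fold lower. Psph, the phosphatase of the last step, was called higher at 24 h (41.1 and 54.4 FPKM, 1.32-fold) and lower at 48 h (40.5 and 29.0, 1.39-fold). The 3 steps therefore did not move in parallel at 24 h, and the ratio of Psat1 to Phgdh FPKM went from 1.61 in wild type to 1.86 in floxed cells at 24 h and from 1.53 to 2.07 at 48 h.

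The folate enzymes were all called lower at 48 h. Shmt2, which splits serine into glycine and a folate-bound carbon unit, stood at 176 and 144 at 24 h, without a call, and at 171 and 92.5 at 48 h, 1.85-fold lower. Shmt2 shares its locus entry with Ndufa4l2, which stayed at or below 0.122 FPKM. Mthfd2, the next oxidation step, stood at 89.9 and 98.4 at 24 h, without a call, and at 90.3 and 63.0 at 48 h, 1.43-fold lower. Mthfd1l, which releases formate, stood at 58.8 and 48.2 at 24 h, without a call, and at 59.1 and 26.7 at 48 h, 2.22-fold lower. Mtr, the methionine synthase that links folate to the methionine cycle, was called higher at 24 h (19.8 and 26.3 FPKM, 1.33-fold) and lower at 48 h (21.0 and 15.3, 1.37-fold).

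Of the 6 expressed enzymes of other amino acids, 3 were called higher at 24 h and 4 lower at 48 h, with 0 called the opposite way at either time. The all-gene shares were 13.4% higher and 14.2% lower at 24 h, and 25.7% and 31.0% at 48 h. Cth, the cystathionine lyase that makes cysteine, had the largest log2 difference of all 37 genes at 24 h. It lies on chromosome 3 from 157894248 to 157925077, minus strand. The control line held 11.7 FPKM and the floxed line 33.0 at 24 h, 2.82-fold higher, and 10.4 and 13.3 at 48 h, without a call. The authors' deposited table gives Cth q = 0.000449 at 24 h and q = 0.0821 at 48 h. Asns, the asparagine synthetase and a standard target of ATF4, lies on chromosome 6 from 7675169 to 7693254, minus strand. It stood at 105 and 161 FPKM at 24 h, 1.53-fold higher, and at 106 and 115 at 48 h, without a call. The floxed values of both genes lay nearer the control at 48 h, at 0.404 times their 24 h value for Cth and 0.718 times for Asns. Bcat1, which starts the breakdown of branched-chain amino acids in the cytosol, was low, at 1.51 and 2.15 FPKM at 24 h and 1.63 and 0.677 at 48 h, and was called higher and then lower (q = 0.00630 and q = 0.000165 in the authors' deposited table).

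The proline and alanine enzymes were called only at 48 h. Aldh18a1, the first enzyme of proline synthesis, stood at 47.4 and 51.9 at 24 h and at 47.1 and 24.9 at 48 h, 1.89-fold lower. Pycr1, the last enzyme of proline synthesis, stood at 3.13 and 2.61 at 24 h and at 3.14 and 1.99 at 48 h, 1.58-fold lower. Gpt2, the mitochondrial alanine transaminase, stood at 13.0 and 12.9 at 24 h and at 13.5 and 6.90 at 48 h, 1.95-fold lower. Each of these 3 genes had nearly the same control value at both times, and its floxed value at 48 h was the lowest of the 4.

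Of the 7 amino acid carriers, 2 were called higher, 3 lower and 2 not called at 48 h, counts near the shares of all genes (25.7% higher and 31.0% lower). Slc3a2, the heavy chain CD98 that carries several exchangers to the surface, and Slc7a5, its partner LAT1 for leucine and other large amino acids, were the higher pair. Slc3a2 stood at 110.0 and 133 FPKM at 24 h, without a call, and at 100.1 and 153 at 48 h, 1.53-fold higher. Slc7a5 stood at 147 and 171 at 24 h, without a call, and at 125 and 164 at 48 h, 1.31-fold higher. The authors' deposited table gives q = 0.000595 for Slc3a2 and q = 0.0422 for Slc7a5 at 48 h, so the latter lay near the threshold. Slc7a11, the cystine and glutamate exchanger that uses the same heavy chain, went the other way and was called lower at both times. Its level was 5.69 and 2.59 FPKM at 24 h, 2.20-fold lower, and 4.77 and 2.88 at 48 h, 1.66-fold lower.

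Slc7a1, the carrier of arginine and lysine, was called lower at both times. It lies on chromosome 5 from 148327410 to 148399904, minus strand. The level was 51.8 FPKM with Cdc73 intact and 38.1 in the floxed line at 24 h, 1.36-fold lower, and 48.1 and 16.2 at 48 h, 2.97-fold lower. Slc1a4, a carrier of serine and other small neutral amino acids, stood at 5.75 and 5.16 at 24 h, without a call, and at 6.25 and 1.97 at 48 h, 3.17-fold lower. Slc1a5, the glutamine carrier of the same family, stood at 94.7 and 106 at 24 h and at 83.4 and 66.7 at 48 h, with no call. Slc38a2, the carrier SNAT2, stood at 64.4 and 67.0 at 24 h and at 69.1 and 70.9 at 48 h, with no call. The sign of the Slc38a2 difference at 48 h turned when both groups were brought to the same FPKM sum. Of the 37 genes, 3 were called lower at both times, Phgdh, Slc7a1 and Slc7a11, and the share among genes tested at both was 11.2%.

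In the ER chaperone arm, the chaperones Hspa5 and Dnajb9 and the degradation factor Herpud1 were called higher in floxed cells at 24 h, and Xbp1, Pdia4 and Sdf2l1 were called lower at 48 h. Dnajb9 was called higher at 48 h too. The 7 genes summed to 1977 FPKM in the control line against 2474 in the floxed line at 24 h. At 48 h the sums were 2249 and 1804, so the floxed sum was 1.25 and then 0.802 times the control sum. Most of each sum was Hspa5 and Hsp90b1, and neither was called at 48 h. Unlike the serine list, the wild type values moved too, and 6 of these 7 genes were higher in wild type cells at 48 h than at 24 h, by a median of 0.18 on the log2(FPKM + 1) scale. Over all expressed genes that median was -0.01, and 4935 of 11158 were higher at 48 h in wild type cells. The shift was not tested.

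Hspa5, the main ER chaperone BiP, was the most abundant of the 37 genes. It lies on chromosome 2 from 34771970 to 34777547, plus strand. Wild type cells held 640.4 FPKM and floxed cells 941 at 24 h, 1.47-fold higher, and 761 and 704 at 48 h, without a call. The authors' deposited table gives Hspa5 q = 0.00448 and q = 0.606. Hsp90b1, the ER member GRP94 of the HSP90 family, stood at 579 and 729 at 24 h and at 658 and 504 at 48 h, with no call (q = 0.114 and q = 0.0529 in the authors' deposited table). Herpud1, which helps to remove misfolded proteins from the ER, stood at 54.6 and 70.3 at 24 h, 1.29-fold higher, and at 63.5 and 53.3 at 48 h, without a call. Its call at 24 h (q = 0.0388 in the authors' deposited table) was lost with q under 0.01. Hspa5, Hsp90b1 and Herpud1 are the genes whose ER stress elements are printed with the promoters.

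Dnajb9, a co-chaperone of BiP also named ERdj4, lies on chromosome 12 from 44205559 to 44210326, minus strand. The control line held 17.2 FPKM and the floxed line 26.4 at 24 h, then 15.2 and 45.2 at 48 h, which is 1.54-fold and 2.97-fold higher. The authors' deposited table gives Dnajb9 q = 0.000831 and q = 0.000165. It was the sole gene of the arm whose difference was higher at 48 h than at 24 h. Xbp1, whose spliced form drives chaperone genes, stood at 295 and 274 at 24 h, without a call, and at 307 and 196 at 48 h, 1.57-fold lower. FPKM of the whole gene does not show how much of Xbp1 was spliced. Pdia4, a disulphide isomerase, stood at 139 and 145 at 24 h, without a call, and at 155 and 89.0 at 48 h, 1.75-fold lower. Sdf2l1, a partner of ER chaperone complexes, stood at 253 and 289 at 24 h, without a call, and at 289 and 211 at 48 h, 1.37-fold lower. Of the other plasma cell markers, Igj, Irf4 and Prdm1 stayed at or below 0.203 FPKM in every group.

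Chac1, Psph, Mtr and Bcat1 were called higher at 24 h and lower at 48 h, a course that few genes took. Only 18 of 10960 genes tested at both times (0.164%) had it, so these 4 genes are 22.2% of that set and 4 of the 37 expressed genes described. Since the genes were chosen with earlier results of these data known, these shares are a description and no separate evidence. The opposite course, lower and then higher, was taken by 1.08% of genes tested at both times and by 0 of the 37. The calls at 24 h were of modest size, from 1.32-fold for Psph to 1.44-fold for Chac1. With q under 0.01 at both times, 3 genes of the table kept this course, and 2 of them, Chac1 and Bcat1, belong to the genes described here. The 24 h and 48 h comparisons use separate libraries of both lines, and the change between them was not tested.

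Other genes of these pathways, from lists drawn up with earlier results known, were mostly called lower at 48 h for tRNA synthetases and folate genes and were mixed elsewhere. The counts of each list stand beside all-gene shares of 13.4% higher and 14.2% lower at 24 h, and 25.7% higher and 31.0% lower at 48 h. Of 13 cytosolic aminoacyl-tRNA synthetases, which charge tRNA with amino acids and many of which ATF4 induces, 1 was called higher and 3 lower at 24 h, and 0 higher and 8 lower at 48 h. Their median log2 difference was -0.11 and then -0.54. Lars, the leucyl enzyme, was at 58.1 and 20.5 FPKM at 48 h, 2.83-fold lower, and Mars, named above for its shared locus entry, was 2.46-fold lower. All 13 had a lower difference at 48 h than at 24 h. The smallest called differences were those of Nars, at 217 and 149, and Sars, at 53.1 and 40.7. Of 12 further expressed folate and methyl cycle genes, 2 were called higher and 6 lower at 24 h, and 1 higher and 8 lower at 48 h, with medians of -0.18 and -0.53. Ahcy, which removes the product of methylation reactions, stood at 133 and 42.8 at 48 h, and Sfxn1, a mitochondrial serine carrier, at 92.2 and 36.5.

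Of 12 further expressed ATF4 targets, 2 were called higher and 3 lower at 24 h, and 5 higher and 4 lower at 48 h, with medians of -0.11 and 0.03. The 4 lower at 48 h are near the all-gene share. Pck2, the mitochondrial PEP carboxykinase, stood at 28.7 and 7.84 FPKM at 48 h, 3.66-fold lower, and Slc38a1, a glutamine carrier, at 56.3 and 28.0. Sesn2, a leucine sensor that restrains mTORC1, stood at 10.9 and 19.5, and Jhdm1d, a histone demethylase whose locus entry is shared, at 2.84 and 6.25. Atf3, of the same list, had its largest log2 difference at 48 h (2.51), with a wild type value under 1 FPKM, and is described under other observations. Of 15 eIF2 kinases, subunits and exchange factors, 1 was called higher and 1 lower at 24 h, and 4 higher and 5 lower at 48 h, with medians of 0.11 and 0.13, so the counts at 48 h are near the all-gene shares. Eif2ak4, the amino acid sensor GCN2, stood at 9.84 and 5.16 at 48 h, and Eif2ak1, the haem-regulated kinase, at 33.8 and 51.3, in a shared locus entry. The exchange factor subunits Eif2b3 and Eif2b2 stood at 27.6 and 14.9 and at 49.2 and 91.2.

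Of 29 further ER genes, 4 were called higher and 1 lower at 24 h, and 2 higher and 12 lower at 48 h, with medians of -0.02 and -0.27. Canx, the lectin chaperone calnexin, stood at 247 and 121 FPKM at 48 h, and Dnajc10, an ER reductase, at 116 and 54.0. The 2 higher genes were the degradation factors Edem1, at 54.7 and 91.0, and Derl1, at 81.5 and 106. The median of this wider list at 24 h was -0.02, beside 0.33 for the ER chaperone arm. The stress sensors themselves, named for their role after their values were seen, were not called at either time. Ern1, which encodes IRE1, stood at 13.0 and 10.8 at 24 h and at 12.7 and 10.7 at 48 h, and Atf6 lay between 13.4 and 14.3 in all groups. Eif2ak3, the ER-resident eIF2 kinase PERK, stood at 8.34 and 9.82 and then at 8.74 and 10.1.

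**Figure D3:**
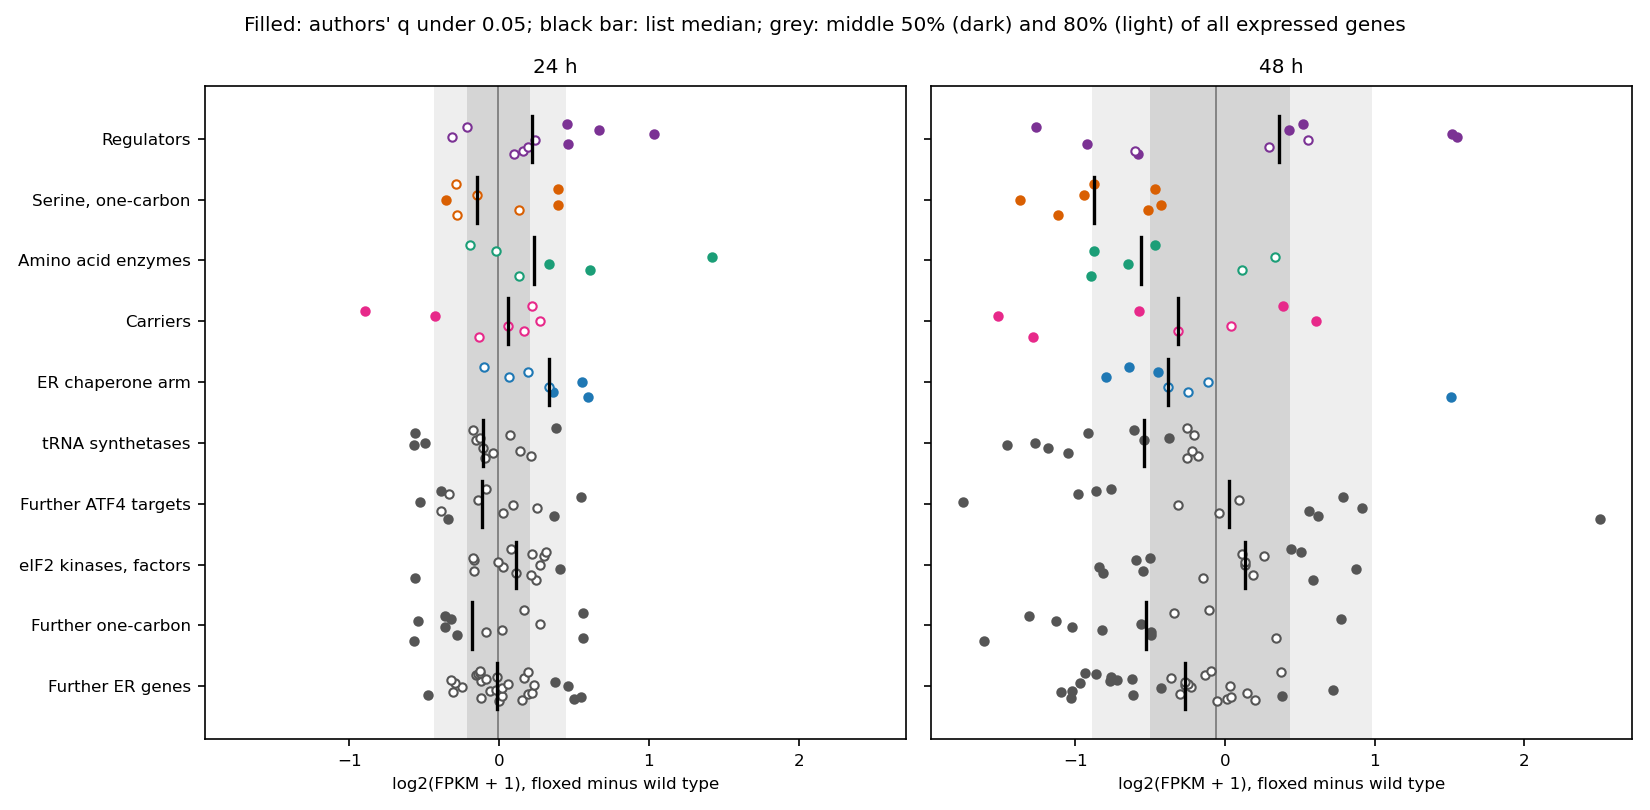
Log2(FPKM + 1) in floxed minus wild type cells at 24 h (left) and 48 h (right) for each expressed gene of the 5 member lists (coloured) and 5 further pathway lists (grey), filled where the authors' q was under 0.05; the black bar is the list median, and the grey bands hold the middle 50% and 80% of all expressed genes. The medians of the serine list (-0.88), the tRNA synthetases (-0.54) and the further folate genes (-0.53) lie lowest at 48 h together with the amino acid enzymes (-0.56).

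Between the times, the ATF4 arm, taken by its median, moved little in the wild type line and lay lower at 48 h in the floxed line. Among the 30 expressed genes of the ATF4 arm the median log2 difference between 48 and 24 h was 0.01 for the control line and -0.65 for the floxed line, and 22 of the 30 were lower at 48 h in floxed cells. In the ER chaperone arm it was 0.18 and -0.45, and 6 of 7 were lower at 48 h in floxed cells. Over all 11158 expressed genes it was -0.01 and -0.08, and 6305 of them were lower at 48 h in floxed cells. The sources used here do not state whether both times were scaled together, so these values carry no call. Of the 6 myeloid markers, Mpo (1145 and 1986 FPKM) and Csf2rb (45.1 and 64.6) were called higher at 24 h and Cebpa (68.8 and 35.7) lower. At 48 h Ptprc, Itgam, Csf2rb and Cd33 were called higher and Mpo lower. The markers summed to 1438 and 2258 FPKM at 24 h and 1642 and 1453 at 48 h, and most of each sum was Mpo. Their part in the differences of the 2 arms was not tested.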

How the data were processed

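Poly(A) RNA of 8 libraries was sequenced. The submitters' processing notes name Bowtie2, Cufflinks 2.1, Cuffdiff and mm10 without saying what each did. The sources used here do not give the strand setting or the annotation. Per the file headers, each gene of the authors' deposited table has 1 FPKM value in each group, the duplicates being combined. The table also gives the authors' q-value of the genotype comparison, 1 for each time, and the authors' fold ratio, which was not used. No value of a single library was analysed, so no replicate error was computed, and calls rest on the authors' q under 0.05. Background shares use expressed genes with a q under 1. The labels call the duplicates biological and do not say whether they were separate cultures, so the spread behind q may be technical.

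Fold values computed here are ratios of FPKM, printed where both groups reach 1 FPKM. Log2 differences used a pseudocount of 1. Left out of the expressed genes were 27 genes whose names had become numbers. All 39 genes matched GENCODE M21, whose assembly is that of mm10. Of all genes listed, 18.6% share a locus entry with another gene, as do Atf5, Ddit3, Shmt2 and Pdia4. Library depth is not given. Among genes under 0.05 FPKM in both lines, the most common floxed to wild type ratio was 0.834 at 24 h (68 of 1274 genes within 0.002 of it) and 1.07 at 48 h (41 of 995), and what this says of depth was not tested.

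The genes and lists were chosen with earlier results of these data known. Every one of the 39 genes is named. Of each further pathway list, the 2 called genes with the highest and the 2 with the lowest log2 difference at 48 h are named, at 1 FPKM or more in both groups, and a few genes of the lists are not reported here. Calls and log2 differences were tested on simulated data, and the motif search on a made-up sequence. Alternatives were pseudocounts of 0.1 and 5, no filter or a filter of 5 FPKM, 2 scalings, a q threshold of 0.01 and leaving out shared locus entries. Python 3.11.15, pandas 2.3.3, numpy 2.4.6 and matplotlib 3.10.9 were used.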

Additional observations from a re-analysis of the deposited data

Results flagged for a closer look

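The genotype difference was called higher at 24 h and lower at 48 h for 4 genes. The log2 difference of Chac1 was lower at 48 h than at 24 h by a change of -1.38, that of Bcat1 by -0.98, that of Psph by -0.86 and that of Mtr by -0.83. The change itself was not tested, because each group has 1 value.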

How the results depend on the processing

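All 8 summary results of the 2 arms (genes called and median log2 difference, at 24 and 48 h) kept their direction and stayed within 1.5 times their value under every alternative run (other pseudocounts, filters, scalings, q under 0.01, shared locus entries left out). The ATF4 arm's median ranged from 0.13 to 0.16 at 24 h and from -0.58 to -0.33 at 48 h, and the ER chaperone arm's from 0.33 to 0.35 and from -0.48 to -0.31. The count of genes called higher at 24 h and lower at 48 h fell from 4 to 2 with q under 0.01, an alternative chosen after seeing the data, since Psph and Mtr have q between 0.01 and 0.05. With that threshold 5 of 15 calls were lost at 24 h and 5 of 27 at 48 h. No called gene changed sign under any pseudocount or scaling. Of the genes without a call, Slc38a2 did at 48 h, from 0.04 to -0.06 with both groups at the same FPKM sum. That scaling moved the median of all genes at 48 h from -0.06 to -0.15. No paired analysis was possible because the table holds 1 value per group, and for the same reason no replicate could be left out. Depth per library is unknown, so no detection limit is given for Vldlr, Cbs and Bcat1.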

Other observations

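Among the other 14 genes called higher at 24 h and lower at 48 h, a few were chosen for naming after their values were seen. Hsph1, a cytosolic chaperone of the HSP110 family, stood at 40.6 and 66.3 FPKM (wild type, then floxed) at 24 h and at 58.5 and 45.4 at 48 h. Ctps, which makes CTP, stood at 48.0 and 61.3 and then at 46.8 and 35.0. Mpo, the peroxidase of primary granules, stood at 1145 and 1986 and then at 1368 and 1011, and Prom1, a surface protein of progenitors, at 12.0 and 18.6 and then at 10.7 and 8.11. Atf3, a stress-induced factor downstream of ATF4, took the opposite course. It was called lower at 24 h, at 1.77 and 1.19 FPKM, and higher at 48 h, at 0.708 and 8.70, and its control value also differed between the times.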
